A study of Mus musculus with 7 samples.

Results

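The genes described here encode the AP-1 transcription factors of the Fos and Jun families, with the stress factor Atf3 and the small Maf protein Maff. They were chosen by name from the deposited table of read counts: Fos, Fosb, Fosl1, Fosl2, Jun, Junb, Jund, Atf3 and Maff, 9 of 54532 genes. All 9 passed the filter on low counts, which left 15351 genes. The bulk RNA-seq libraries hold kidney RNA of C57BL/6J mice, 6 to 8 weeks old and male per the series' design text. All 7 come from mice that received cisplatin, a platinum chemotherapy toxic to tubule cells, as 20 mg/kg by tail vein. Of these, 4 are labelled saline and 3 are labelled DXZ, an agent the labels do not spell out. DXZ was given at 40 mg/kg into the tail vein 30 minutes before cisplatin and every 24 hours after it for 3 days. No library without cisplatin was analysed here, and since separate animals are not stated for the libraries, p-values measure the spread between these samples.

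AP-1 is a dimer of basic leucine zipper (bZIP) proteins. Jun proteins can pair with themselves or with Fos proteins, while Fos proteins need a Jun partner, and the pair binds the DNA site TGANTCA. Fos, Fosb, Jun and Junb are classical immediate early genes, switched on within minutes of a stimulus through MAP kinases and shut off quickly, whereas Fosl1 and Fosl2 generally follow later and last longer. Atf3 pairs with Jun proteins and is induced by many stresses, the kidney's response to injury included. Maff, a small Maf protein, has no activation domain and works as a partner of the CNC factors such as NRF2.

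Of the 9 members 3 rose with DXZ and none fell: Fosl1, Atf3 and Maff. Fosl1 was 3.89-fold, Atf3 2.07-fold and Maff 1.83-fold higher in the fit. Every one of the 9 had a positive log2 fold change of DXZ over saline, with a median of 0.79 against 0.01 over all 15351 tested genes, but Fos, the founding member, was at 0.13 and its groups overlapped. By edgeR's quasi-likelihood test with Benjamini-Hochberg adjustment over all genes, 5.56% of tested genes were called at an adjusted p below 0.05, 3.24% of them higher and 2.31% lower in DXZ. The groups did not overlap in 7 of the 9 members, with DXZ above saline in each, where 12.8% of all tested genes had DXZ above saline without overlap and 11.3% had it below. The calls depended on single libraries, among the members as over all genes. There were 3 members called without DXZ 1 (with Jund in place of Maff), 2 without saline 2 and 1 without saline 1. The count was 0 without saline 3, saline 4, DXZ 2 or DXZ 3. Over all genes those 7 fits called 1574, 296, 374, 426, 4, 1 and 141 in the same order, so that hardly any gene was called without saline 4 or DXZ 2. In each of the last 4 fits 7 members had an unadjusted edgeR p below 0.05, as did 23.4%, 20.2%, 20.3% and 20.7% of all tested genes.

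**Figure D1:**
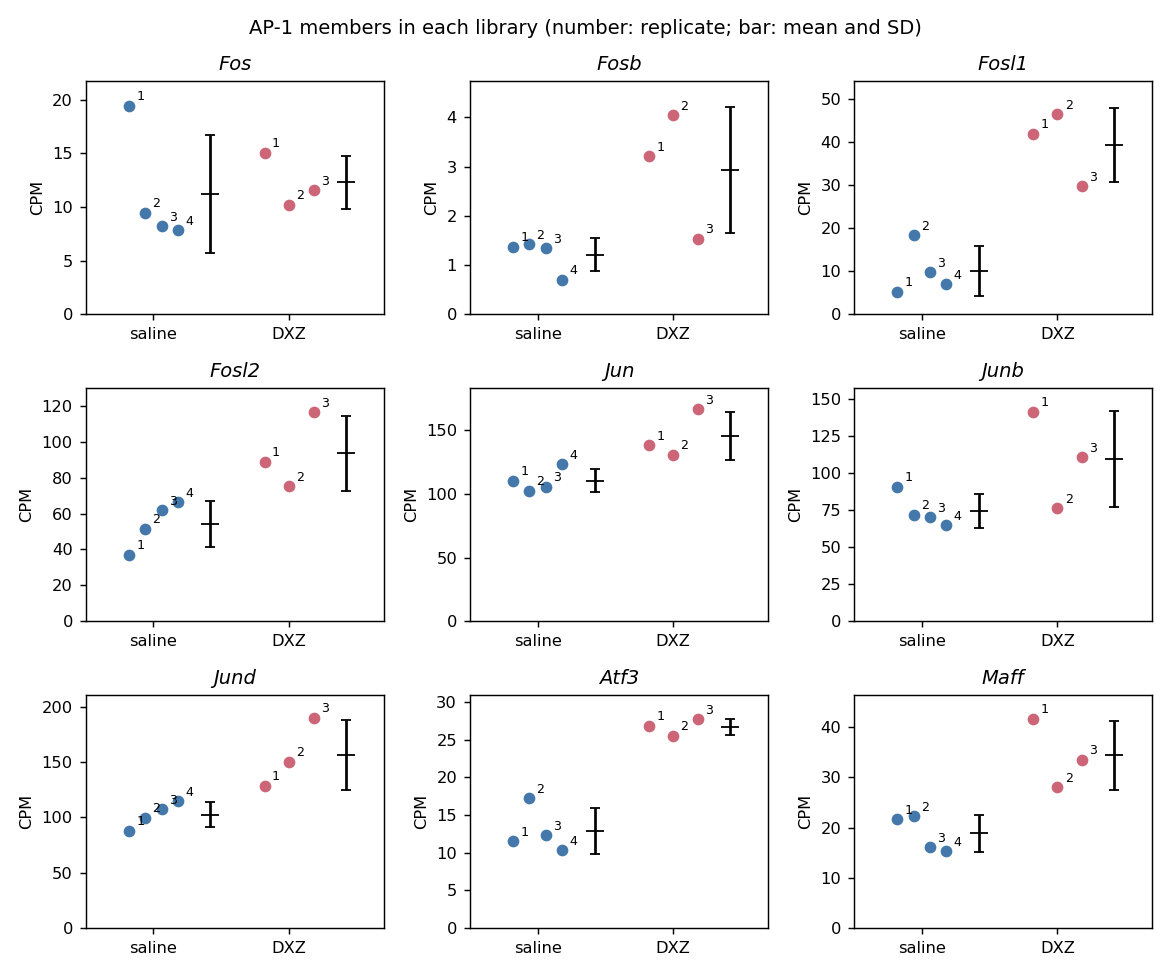
Level of each member in CPM (read counts scaled to a common library size, y axis from 0) in the 4 saline libraries (blue) and 3 DXZ libraries (red), numbered by replicate; the bar beside each group is its mean and SD. The groups are apart in 7 panels, while those of Fos and Junb overlap.

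The promoters are shown because several of these genes are known to answer their own family's proteins. RefSeq promoters (GRCm38.p6) were matched for 8 of the 9 members, all but Fosl1, in 10 windows of 250 bases before a start site. Below are the last 100 bases before the RefSeq start, 5′ to 3′ on the gene's strand, for 4 windows that hold a motif. The Atf3 and Maff windows shown lie inside the gene's deposited coordinates, so that start is not the deposited gene start. Capitals mark TGACGT on either strand, TGACNTCA on either strand, or TATAAA on the gene's strand.
Fos, chr12:85473790-85473889, plus strand: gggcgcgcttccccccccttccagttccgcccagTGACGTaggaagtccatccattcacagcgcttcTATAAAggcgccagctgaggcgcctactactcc
Jun, chr4:95052223-95052322, minus strand: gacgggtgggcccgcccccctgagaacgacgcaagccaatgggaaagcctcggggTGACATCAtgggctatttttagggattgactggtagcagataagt
Atf3, chr1:191183334-191183433, minus strand: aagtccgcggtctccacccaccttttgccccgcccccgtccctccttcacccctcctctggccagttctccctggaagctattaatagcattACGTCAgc
Maff, chr15:79347420-79347519, plus strand: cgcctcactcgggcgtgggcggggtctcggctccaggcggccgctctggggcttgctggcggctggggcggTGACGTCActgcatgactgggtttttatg

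The shorter site TGACGT was in promoters of 3 of the 8 members (Fos, Atf3 and Maff) and in 6.46% of 32817 promoters of the same length. Members were counted by gene, so Maff could match in any of its 3 windows, whereas the percentages count single windows. The member counts and these percentages are therefore not in like units. The longer site TGACNTCA was in 2 of the 8 (Jun and Maff) and in 7.49% of promoters; in Maff it overlaps the shorter site, and another of Maff's 3 windows also holds it. TATAAA was in 1 of the 8, Fos, and in 7.60% of promoters. The AP-1 site TGANTCA was in 0 of the 8 and in 6.75% of promoters, and the CArG box, the letters bound by serum response factor, in 0 and 1.47%. Sites farther than 250 bases before the start were not searched, so a 0 holds for these windows only. The antioxidant type site TGACNNNGC, searched on both strands, was in 1 of the 8, Maff, and in 10.2% of promoters. The Jund window, 70697489 to 70697738, ends well before the gene start in the deposited table, 70698949. The Fosl2 and Atf3 windows lie inside the gene. For Jund, Fosl2 and Atf3 the bases just before the deposited start were therefore not searched. These matches describe letters in a window, and no factor's binding was measured.

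AU-rich elements in the 3′ untranslated region mark many short-lived immediate early messages, so these were read too, from the GENCODE M21 transcript with the longest such region. The pentamer ATTTA was present in 9 of 9 members, from 1 copy in Fosb, Fosl1 and Jund to 8 in Fosl2, and in 63.2% of 21668 genes. The nonamer TTATTTATT was present in 3 of 9 members and 7.43% of genes. It is shown in capitals within its surroundings, since it is the stricter of these 2 elements.
Fos: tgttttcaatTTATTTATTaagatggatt
Fosl2: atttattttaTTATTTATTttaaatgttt
Maff, first copy: ttccacactcTTATTTATTgcacgaatct
Maff, second copy: ctcccagagtTTATTTATTttctgacttc

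The regions that were searched differ in length, from 488 bases in Junb to 4656 in Fosl2. Among genes with a region of 0.5 to 2 times the length, the nonamer was in 5.63% for Fos, 17.3% for Fosl2 and 7.96% for Maff. The log2 fold changes of DXZ over saline for these 3 genes were 0.87 (SE 0.19) for Maff, 0.79 (SE 0.22) for Fosl2 and 0.13 (SE 0.34) for Fos, and differences between them were not tested.

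The Fos family is taken first. Fosl1, which encodes FRA-1 (ENSMUSG00000024912, chromosome 19, 5447703 to 5455945, plus strand, GRCm38), was at 5.22, 18.4, 9.84 and 6.99 CPM in saline 1 to 4 and at 41.9, 46.4 and 29.7 CPM in DXZ 1 to 3. All DXZ libraries lay above all saline libraries, and saline 2 was the highest of its group. Its mean was 10.1 ± 5.83 CPM (SD, n = 4) in saline and 39.3 ± 8.63 CPM (SD, n = 3) in DXZ, so the log2 fold change was 1.96 with an SE of 0.39 (edgeR adjusted p = 0.0353). Fosl1 remained called without saline 2 or DXZ 1 (edgeR adjusted p = 0.0360 and 0.0408) and lost its call without any 1 of the other 5 libraries (0.0527 to 0.107), with log2 fold changes between 1.74 and 2.42 throughout.

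Fosl2, which encodes FRA-2 (chromosome 5, 32135801 to 32157842, plus strand), was at 37.1, 51.6, 62.1 and 66.3 CPM in saline 1 to 4 and at 89.0, 75.5 and 116.6 CPM in DXZ 1 to 3. The groups did not overlap, yet the log2 fold change of 0.79 (SE 0.22) did not pass (edgeR adjusted p = 0.0721). Without a filter on low counts it passed, at an edgeR adjusted p of 0.0481. Saline 1, lowest of all for Fosl2, was also the lowest for Fosl1.

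Fos itself (chromosome 12, 85473890 to 85477273, plus strand) was at 19.4, 9.46, 8.19 and 7.82 CPM in saline 1 to 4 and at 15.0, 10.2 and 11.6 CPM in DXZ 1 to 3. The highest library of all was saline 1, which lay above each DXZ library, while the other 3 saline libraries lay below them. The log2 fold change was 0.13 (SE 0.34, edgeR adjusted p = 0.849). Without saline 1 it was 0.53 (edgeR adjusted p = 0.169), and it was -0.04 without DXZ 1 (0.951) and -0.02 without saline 4 (0.989), so neither a change nor its absence was shown for Fos.

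Fosb (chromosome 7, 19302696 to 19310051, minus strand) was near the detection limit, with 24, 24, 22 and 12 reads in saline 1 to 4 and 57, 67 and 26 reads in DXZ 1 to 3. DXZ 3, at 1.54 CPM, lay just above the highest saline library at 1.43 CPM. The log2 fold change of 1.27 (SE 0.40) did not pass (edgeR adjusted p = 0.10), and its value without DXZ 2 was 0.95.

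**Figure D2:**
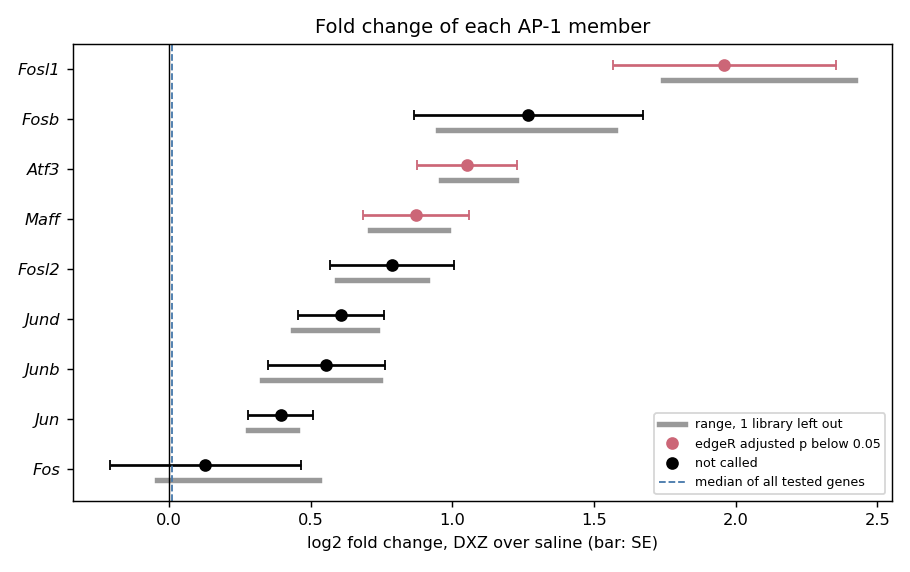
Log2 fold change of DXZ over saline for each member (points, with SE as bars; red where the edgeR adjusted p was below 0.05) and the range when any 1 library was left out (grey lines). Fosl1 is farthest from 0 at 1.96, and only the range of Fos reaches below 0.

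The Jun family was the more abundant. Jund (chromosome 8, 70698949 to 70700616, plus strand), the Jun gene with the steadiest expression in most tissues, was at 88.1, 99.7, 107.5 and 114.8 CPM in saline 1 to 4 and at 128.4, 150.3 and 190.2 CPM in DXZ 1 to 3. The groups did not overlap, and the log2 fold change of 0.61 (SE 0.15) did not pass (edgeR adjusted p = 0.0566). It passed without DXZ 1, at 0.73 (edgeR adjusted p = 0.0297).

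Jun (chromosome 4, 95049034 to 95052222, minus strand), which carries the site TGACATCA shown above, was at 110.5, 102.7, 105.7 and 123.4 CPM in saline 1 to 4. In DXZ 1 to 3 it was at 138.5, 130.8 and 166.7 CPM. The groups were apart by a narrow margin, and the log2 fold change of 0.39 (SE 0.12) did not pass (edgeR adjusted p = 0.0824). Jun had the lowest coefficient of variation in the saline group of the 9, 8.23%.

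Junb (chromosome 8, 84974484 to 84978718, minus strand), which often opposes Jun in cell growth, was at 90.8, 71.8, 70.2 and 64.5 CPM in saline 1 to 4 and at 141.1, 76.3 and 110.4 CPM in DXZ 1 to 3. DXZ 2 fell inside the saline range, and the log2 fold change of 0.56 (SE 0.21) did not pass (edgeR adjusted p = 0.141). It was 0.33 without DXZ 1. Junb overlaps Prdx2 by 351 bases on the opposite strand, and since it is not known whether strand was used in counting, some of its 10672 reads may belong to Prdx2, which had 25203. The Jun antisense gene Junos had 133 reads against 14928 for Jun.

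The other 2 members rose. Atf3 (ENSMUSG00000026628, chromosome 1, 191170296 to 191218039, minus strand) was at 11.5, 17.2, 12.3 and 10.3 CPM in saline 1 to 4 and at 26.8, 25.5 and 27.7 CPM in DXZ 1 to 3. The DXZ libraries lay close together, with an SD of 1.09 CPM around a mean of 26.7, and each was above the highest saline library. The log2 fold change was 1.05 (SE 0.18, edgeR adjusted p = 0.0238). Atf3 remained called without saline 1, saline 2 or DXZ 1 (edgeR adjusted p between 0.0285 and 0.0461) and was lost without saline 3, saline 4, DXZ 2 or DXZ 3 (0.0503 to 0.0777).

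Maff (ENSMUSG00000042622, chromosome 15, 79346621 to 79359076, plus strand) was at 21.6, 22.2, 16.1 and 15.3 CPM in saline 1 to 4 and at 41.7, 28.1 and 33.5 CPM in DXZ 1 to 3. DXZ 1 was the highest and no library crossed between the groups. The log2 fold change was 0.87 (SE 0.19, edgeR adjusted p = 0.0420). Maff lost its call without any 1 of the 7 libraries (edgeR adjusted p between 0.0524 and 0.108), with log2 fold changes between 0.71 and 0.98.

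Levels of different genes were compared on the deposited FPKM, which is scaled by gene length. In saline the order of mean FPKM was Jund (61.2 ± 7.02, SD, n = 4), Jun (34.5 ± 2.99), Junb (32.1 ± 4.87), Maff (7.22 ± 1.37), Atf3 (5.94 ± 1.38), Fosl1 (5.89 ± 3.38), Fosl2 (5.58 ± 1.35), Fos (4.75 ± 2.33) and Fosb (0.19 ± 0.05). The ranges of Jund and Jun were apart, as were those of Junb and Maff and of Fos and Fosb. Every other pair of neighbours overlapped, so the order from Maff to Fos was not resolved. In DXZ the order was Jund (93.1 ± 19.3, SD, n = 3), Junb (46.99 ± 13.4), Jun (45.2 ± 5.93), Fosl1 (22.9 ± 5.07), Maff (13.1 ± 2.45), Atf3 (12.3 ± 0.46), Fosl2 (9.60 ± 2.15), Fos (5.17 ± 0.98) and Fosb (0.47 ± 0.21). Here only the neighbours Junb and Jun, Maff and Atf3, and Atf3 and Fosl2 overlapped. Fosl1 had rank 4 among the members in each DXZ library, and ranks 8, 4, 6 and 7 in saline 1 to 4.

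**Figure D3:**
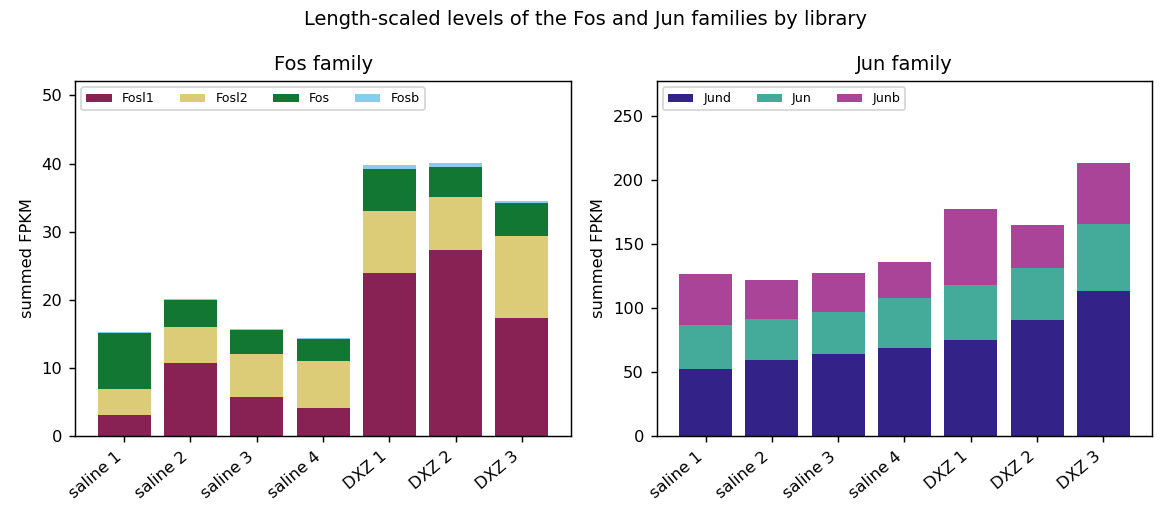
Deposited FPKM of the 4 Fos family genes (left) and 3 Jun family genes (right), stacked for each library, both axes from 0. The Fos family total was 14.4 to 20.2 in saline and 34.4 to 40.1 in DXZ, with the Fosl1 segment the tallest in each DXZ library.

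The makeup of the Fos family differed between libraries. Fosl1 made up 19.9%, 52.9%, 36.3% and 28.5% of the summed Fos family FPKM in saline 1 to 4. In DXZ 1 to 3 its share was 60.4%, 68.0% and 50.3%. Saline 2 lay inside the DXZ range. Fos made up 53.8% in saline 1 and 19.8% to 23.1% in the other saline libraries, against 10.9% to 15.7% in DXZ. The summed Fos family was 16.4 ± 2.58 FPKM (SD, n = 4) in saline and 38.1 ± 3.16 FPKM (SD, n = 3) in DXZ, and the summed Jun family 127.9 ± 5.71 and 185.3 ± 25.1 FPKM. Neither sum overlapped between groups, while the ratio of Fos to Jun family did, at 0.11 to 0.17 in saline and 0.16 to 0.24 in DXZ. Within the Jun family Jund was the largest part in each of the 7 libraries, from 41.6% to 54.9%. These sums and shares are descriptions and were not tested.

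Members also differed in which libraries were high. By the root mean square difference of centred log2 CPM over the 7 libraries, the most alike pair was Jun and Jund (0.17), then Fosl2 and Jund (0.21), Junb and Maff (0.23) and Atf3 and Maff (0.24). The least alike was Fos and Fosl1 (1.24). Fosl2, Jun, Jund and Atf3 were highest in DXZ 3, Fosl1 and Fosb in DXZ 2, and Junb and Maff in DXZ 1. Fos was highest in saline 1.

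The same measure gave the genes most like each called member among 12682 genes of plain name and at least 1 CPM. For Fosl1 they were Cd68, a lysosomal glycoprotein (0.23), Hmga1, a chromatin protein (0.24), Anxa3, an annexin (0.26), Rps27a, a ubiquitin and ribosomal protein fusion gene with many near-identical copies that make its count uncertain (0.28), and Isg20, an exonuclease (0.28). For Atf3 they were Arpc1b, an Arp2/3 subunit (0.12), Ppp1r14b (0.13), Dusp10, a MAP kinase phosphatase (0.13), Gins2 (0.13) and Fhdc1 (0.13). For Maff they were Nme4, Kntc1, Mapk11, Gar1 and Birc3 (0.15 to 0.16). For Jun they were Zfp513, Rpl28, Mief2, Exosc7 and Sumf2 (0.04 to 0.07), and for Fos Dusp4, Fasn, Sh3bp2, Dagla and Slc6a9 (0.14 to 0.19). Cd68 is on the macrophage marker list, where it was the 1 gene called of 10 and the median log2 fold change was 0.0031. A gene that varies little, such as Jun, has close neighbours by this measure more easily than one that varies as much as Fosl1.

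The relatives of these factors were called at a share near that of all genes, 5.56%. The deposited table marks 44 tested genes as bZIP factors, and of the 35 that are not members 2 rose (Mafk and Ddit3), 1 fell (Hlf), or 8.57%, and the median log2 fold change was 0.02. These 3 were named after their values were seen. In a list of 19 other AP-1 and CNC-Maf family genes, 17 were tested, 1 rose, 0 fell, and the median was 0.09. Mafk, the small Maf paralogue of Maff, was at 45.0 to 51.95 CPM in saline and at 63.0, 73.2 and 82.96 CPM in DXZ 1 to 3. It rose without overlap, by 0.58 on the log2 scale with an SE of 0.11 (edgeR adjusted p = 0.0316).

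Of the MAP kinase cascade that drives AP-1, 31 of 32 genes were tested, 1 rose and 0 fell, with a median log2 fold change of 0.09. Of all tested genes 3.24% were higher and 2.31% lower. Mapk11, which encodes p38 beta, was at 6.38 ± 1.07 CPM in saline (SD, n = 4) and rose to 11.9 ± 1.71 CPM in DXZ (SD, n = 3; log2 fold change 0.90, edgeR adjusted p = 0.0388). The groups did not overlap in 7 of the 31 genes, 5 with DXZ above saline and 2 with it below. Over all tested genes those shares were 12.8% and 11.3%. Among the 7, Mapk13 was at 1.01 and Mapk14 at -0.31 (edgeR adjusted p = 0.0758 and 0.130). Mapk8, encoding the Jun kinase JNK1, was at 0.10 and Srf, the serum response factor, at -0.02, and neither passed. Mapk13, Mapk14, Mapk8 and Srf were named after their values were seen.

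The phosphatases and feedback inhibitors that shut MAP kinases off had 4 of 16 higher and 0 lower, where 3.24% of all tested genes were higher, and a median log2 fold change of 0.21. The count was 3 without DXZ 1, 2 without DXZ 3, 1 without saline 1, saline 2 or saline 3, and 0 without saline 4 or DXZ 2. Spred3, an inhibitor of the Ras to ERK step, was at 3.57 to 4.64 CPM in saline and at 9.69, 12.2 and 8.50 CPM in DXZ 1 to 3 (log2 fold change 1.33, edgeR adjusted p = 0.0205). Dusp5, a nuclear ERK phosphatase, was at 12.3 ± 2.99 CPM in saline (SD, n = 4) and rose to 34.0 ± 11.6 CPM in DXZ (SD, n = 3). Dusp10, which acts on JNK and p38, and Dusp7, a cytoplasmic ERK phosphatase, rose by 1.16 and 0.59 on the log2 scale, and for these 3 genes the edgeR adjusted p lay between 0.0313 and 0.0459. Dusp1, itself an immediate early gene, was at 77.9 ± 4.63 and 68.9 ± 6.02 CPM and did not pass.

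Genes that control turnover of AP-1 messages and proteins had 0 of 10 called by edgeR, with 6 at an unadjusted p below 0.05, as were 25.4% of all tested genes. DESeq2 called 2 of them, where it called 12.9% of all genes it tested. The median log2 fold change of the list was -0.06. The lowest adjusted p-values were those of Fbxw7, a ubiquitin ligase subunit that marks Jun for destruction (log2 fold change 0.47, edgeR adjusted p = 0.0603), and Itch, a ubiquitin ligase that acts on Jun proteins (-0.40, edgeR adjusted p = 0.0676). Zfp36, which binds AU-rich elements such as those shown above, was at 0.23 and did not pass.

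Of 27 tested textbook AP-1 targets 6 rose and 0 fell, where 3.24% of all tested genes were higher and 2.31% lower. Their median log2 fold change was 0.74. The count was 6 without DXZ 1, 4 without saline 1, 3 without saline 2, saline 3 or DXZ 3, and 0 without saline 4 or DXZ 2. With all libraries, those that rose were Krt18, an epithelial keratin, Plaur, the urokinase receptor, and Mmp14, a membrane metalloproteinase. Sphk1, a sphingosine kinase, Hmox1, the heme-degrading enzyme, and Areg, an EGF receptor ligand, rose too. Areg was at 0.75 to 2.85 CPM in saline and at 3.44, 14.8 and 13.2 CPM in DXZ 1 to 3, or 2.41 higher on the log2 scale with an SE of 0.56 (edgeR adjusted p = 0.0486), and Sphk1 was at 15.8 to 32.6 and at 48.6, 74.98 and 75.2 CPM. Other classical targets did not pass: Mmp9 was at -0.07, Mmp13 at -0.70 and Ccl2 at -0.34 on the log2 scale; these 3 were named after their values were seen.

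Other immediate early genes had 5 of 20 higher and 0 lower, where 3.24% of all tested genes were higher and 2.31% lower. Their median log2 fold change was 0.70. The count was 7 without DXZ 1, 5 without saline 1, 4 without saline 2 and 3 without saline 3. It was 2 without DXZ 3 and 0 without saline 4 or DXZ 2. Klf10 rose from 25.3 ± 2.72 to 45.97 ± 2.92 CPM, Btg2 from 170 ± 34.96 to 381 ± 52.1 CPM, and Gadd45b from 12.7 ± 2.62 to 28.0 ± 4.39 CPM (SD, n = 4 and n = 3). Ier2 and Myc rose by 0.78 and 0.90 on the log2 scale, and for these 5 genes the edgeR adjusted p lay between 0.0204 and 0.0492. Egr1, usually induced together with Fos, was at 52.9 ± 23.7 and 86.8 ± 12.0 CPM and did not pass. None of these 6 pathway lists had a called gene without saline 4 or without DXZ 2, fits in which 4 and 1 of all tested genes were called.

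**Figure D4:**
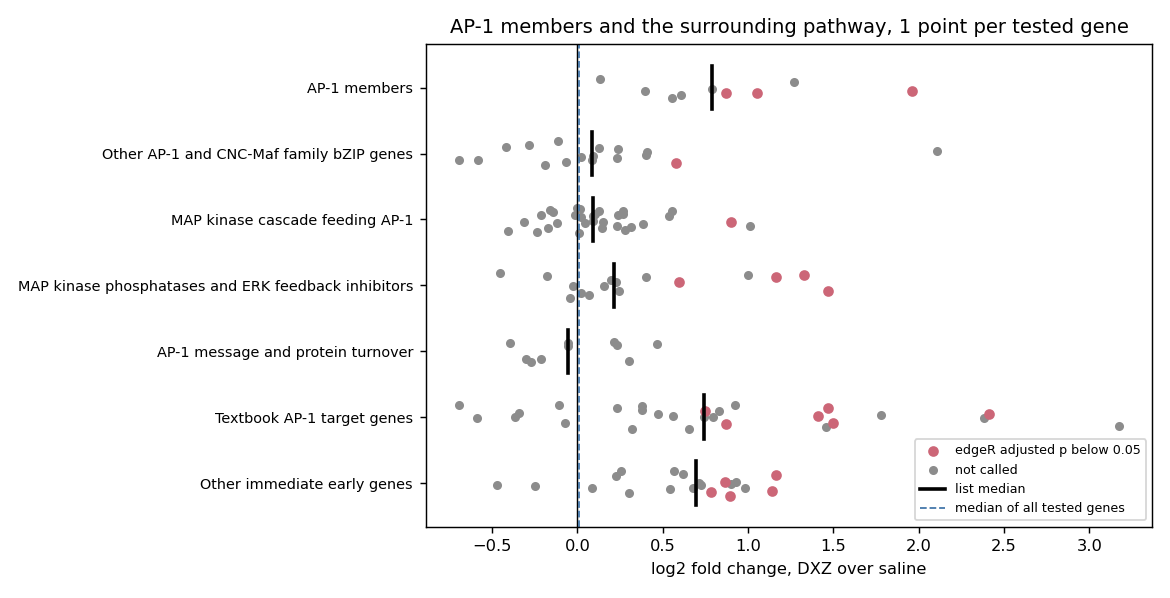
Log2 fold change of DXZ over saline (x axis) for each tested gene of the 9 members and of 6 lists around AP-1, red where the edgeR adjusted p was below 0.05; the black bars are list medians and the dashed line the median of all tested genes. Member, target and immediate early medians lie between 0.70 and 0.79, and those of the other 4 lists between -0.06 and 0.21.

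Across the series, total counts ran from 16058157 to 18133736 in each library, of which 5.18% to 8.35% were mitochondrial. Markers of the cells a kidney sample can hold moved with the groups or with single libraries. Summed proximal tubule markers, led by Kap and Slc34a1, were at 6561 to 27347 CPM in saline, highest in saline 1, and 3400 to 6399 CPM in DXZ. Summed injured tubule markers, led by Clu and Lcn2, were at 2186 to 4288 CPM in saline and 6104 to 9617 CPM in DXZ, with none of the 10 at 0. Within the saline group that sum was highest in saline 3, as were Lcn2, Clu, Krt18 and Cd24a of the list. The rest of the list, Havcr1, Krt8, Krt20, Vcam1, Sox9 and Vim, was highest in saline 2, as were Fosb, Fosl1, Atf3 and Maff. The other members were highest in saline 1 (Fos and Junb) or saline 4 (Fosl2, Jun and Jund). Krt18 and Vim are on both the injured tubule and the AP-1 target list. In bulk RNA fewer cells of a type and less RNA per cell cannot be told apart, and the part of these markers in the AP-1 values was not tested.

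Among the other cell types, urothelial markers had their highest sum in DXZ 3 and all the rest in DXZ 1. Summed fibroblast and mural markers (led by Col1a2 and Col3a1) were at 884 CPM there, against 109 to 145 in the other DXZ libraries and 215 to 608 in saline. Macrophage markers (Lyz2 and C1qb) were at 397 against 77.1 to 132 and 115 to 240, and endothelial markers (Plvap and Flt1) at 744 against 124 to 184 and 386 to 684. Neutrophil markers (S100a9 and S100a8; Mpo at 0) were at 18.1 against 5.43 to 9.31 and 3.96 to 9.41, and lymphocyte markers (Trac and Cd79b) at 2.02 to 7.04 CPM over all libraries. Urothelial markers (Upk3b and Upk1b) were at 3.67 to 48.4 CPM in saline and 17.4 to 78.1 CPM in DXZ. Junb, Maff and Fos were the members highest among DXZ libraries in DXZ 1. Without it their log2 fold changes were 0.33, 0.71 and -0.04, while Fosl1 and Atf3 were at 1.91 and 1.05.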

How the data were processed

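The deposited files give raw read counts of each gene, as whole numbers, and FPKM values; both were used as deposited. The submitters' processing notes name HISAT2 and StringTie as tools and mm9 as the build; which program counted reads, and whether by strand, is not given in the sources used here. Of 54409 gene identifiers shared with GENCODE M21 (GRCm38), 98.3% had the same coordinates, so positions are given as GRCm38. The deposited FPKM equals the count over gene length, times a single factor for each library. Counts were tested in R 4.3.3 with edgeR 4.0.16 (filterByExpr, TMM, quasi-likelihood F test, Benjamini-Hochberg over 15351 genes, adjusted p below 0.05). CPM uses TMM-scaled library sizes, and SEs were derived from the log2 fold change and the F statistic. The script was tested on simulated data. Alternatives used limma 3.58.1, DESeq2 1.42.0, other filters and scalings, and each library left out. Replicate libraries differed by more than sampling noise (chi-square over its degrees of freedom at least 14.8).

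The members and gene lists were chosen with earlier results of these data known. All 9 members are named, with up to 6 called genes of lowest adjusted p per pathway list (the 2 of lowest adjusted p where none was called), the 2 most abundant genes of each marker list, and the 5 genes most like Fos, Jun and each called member (log2 CPM with a prior count of 2). Ccn1 and Ccn2 were matched by their older symbols through RefSeq synonyms.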

Additional observations from a re-analysis of the deposited data

Results flagged for a closer look

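In the saline group of 4, a library was singled out where its gap to the nearest other library was past Dixon's 95% critical value, which chance exceeds in about 1 in 20 groups; 8 of 73 values screened were. Among the members, Fos was at 19.4 CPM in saline 1, with 7.82 to 9.46 CPM in the other saline libraries, and made up 53.8% of the Fos family FPKM there, with 19.8% to 23.1% in the others. Fosb was at 0.71 CPM in saline 4, below the 1.34 to 1.43 CPM of the others. Fasn and Slc6a9 were also high in saline 1, which follows from their choice as genes whose profile is most like that of Fos. Fasn, the fatty acid synthase, was at 132.9 CPM with 56.4 to 65.9 in the others, and Slc6a9, a glycine transporter, was at 26.0 CPM with 10.3 to 11.5. Krt18 was at 75.4 CPM in saline 3 with 41.0 to 46.5 in the others, and Rps27a at 233.5 CPM in saline 2 with 87.2 to 107.1. The summed urothelial markers were at 48.4 CPM in saline 3 with 3.67 to 11.2 in the others. The cause of these values was not tested.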

How the results depend on the processing

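The count of called genes among all tested was 853, of which 3 were members. DESeq2 called 2027 and 7 of the 9 members, limma on unfiltered log2(FPKM + 1) called 145 and 0, and leaving out 1 library gave 1 to 1574 genes and 0 to 3 members. With saline 1 and DXZ 1 both left out, a setting chosen after seeing the data, 1332 genes and 4 members were called. With the replicate number as a block the counts were 85 and 0, and the fit keeps saline 4 without a partner. Deviations from the group means of same-numbered libraries correlated at 0.26, -0.09 and 0.23 across genes, so the numbers were not taken to pair the samples, and saline 2 correlated best with DXZ 1. The cause of these shifts was not tested. At an unadjusted p below 0.05 there were 8 members with all libraries, 7 without saline 4 and 7 without DXZ 2, beside 25.4%, 20.2% and 20.3% of all tested genes. Fos turned to -0.016 without saline 4 and -0.043 without DXZ 1, and was at 0.53 without saline 1; the other 8 members were positive in each setting in which they were tested, and the median of the members was 0.58 to 0.91. Fosl1 was called in 11 of 18 settings, Atf3 in 12 and Maff in 9. Fosb had 12 to 67 reads per library, the fewest of the members, and was called by DESeq2 alone (adjusted p = 0.0420); the part of depth was not tested.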
